A study of Mus musculus with 36 samples.

Results

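Sfi1 is a mouse gene on chromosome 11 (gene ID 78887, protein-coding), annotated at chr11:3131850-3203347 of GRCm38.p6, a span of 71498 bp. It was selected on its very high density of apurinic/apyrimidinic (AP) sites in these data, and is 1 of 49943 genes counted on chromosomes 1 to 19, X and Y. The AP density is therefore given as a description, without a test, and the tests concern what the choice did not use: single-strand breaks (SSBs), the strand of the lesions and the differences among tissues. The samples were bone marrow, brain, heart, liver, sperm and mononuclear cells of peripheral blood (PBMCs) of 24-month-old male C57BL/6J mice, with 2 samples per tissue, each profiled once for AP sites and once for SSBs, which gives 24 libraries. The sources name 2 mice for all of the tissues, and give no treatment, transgene or other genotype for either animal. Red cells were lysed in bone marrow, PBMCs were separated on Ficoll, sperm were the motile cells of the epididymal tail, and sperm DNA was extracted with another kit than the DNA of the other tissues. According to the study, AP sites and SSBs were profiled in DNA of the same tissue samples, so the assays share animals. The SSB density is therefore not independent of the choice by AP density. The p-values below measure the spread between libraries of 2 mice. The series also labels RNA libraries of these tissues, which were not used here, so that the defining markers of each tissue were not analysed.

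SFI1 is a centrosomal protein with a long row of centrin-binding repeats; centrins are small calcium-binding proteins of the centriole, and the complex is known from centrosome duplication and from cilia. AP sites arise in DNA when a base is lost, either spontaneously or when a glycosylase removes a damaged base, and are removed by base excision repair. SSBs are interruptions of a single strand, which arise directly or as intermediates of that repair, and are joined by ligases.

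Each deposited list gives single-nucleotide positions with their strand, and each position was counted once. The libraries held 460719 to 963258 AP positions and 225011 to 1041983 SSB positions. Sfi1 alone held 544 to 1340 of the AP positions of a library (median 893) and 283 to 1116 of its SSB positions (median 464), in all 10751 and 6371. That is 0.102% to 0.139% of a library's AP positions and 0.102% to 0.128% of its SSB positions.

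A stretch inside Sfi1 and a stretch near its high-coordinate end show the contrast at the level of single bases. Both are RefSeq promoter windows of other genes that overlap Sfi1 (GRCm38.p6, plus strand, 5′ to 3′, 300 bases each), and capitals mark the nucleotides at which a plus-strand lesion was listed by 1 or more of the assay's 12 libraries. The first window, chr11:3136826-3137125, precedes and includes the start of the long non-coding RNA gene Gm33862, which lies within Sfi1. The second, chr11:3202103-3202402, is at a start of Eif4enif1, whose product binds the translation factor eIF4E and which overlaps the high-coordinate end of Sfi1.
Gm33862 window, AP sites: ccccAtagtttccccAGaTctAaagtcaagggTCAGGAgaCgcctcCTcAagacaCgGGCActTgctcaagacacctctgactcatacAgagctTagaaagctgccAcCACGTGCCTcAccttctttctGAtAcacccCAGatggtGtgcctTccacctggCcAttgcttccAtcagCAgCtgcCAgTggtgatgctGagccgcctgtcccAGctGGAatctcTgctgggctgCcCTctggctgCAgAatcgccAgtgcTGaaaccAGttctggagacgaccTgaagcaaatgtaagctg
Gm33862 window, SSBs: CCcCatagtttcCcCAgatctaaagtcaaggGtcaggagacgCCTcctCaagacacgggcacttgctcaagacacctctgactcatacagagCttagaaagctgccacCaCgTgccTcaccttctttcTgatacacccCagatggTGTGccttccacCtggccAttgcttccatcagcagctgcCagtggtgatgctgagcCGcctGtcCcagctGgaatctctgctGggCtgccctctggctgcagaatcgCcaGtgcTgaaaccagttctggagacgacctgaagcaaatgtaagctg
Eif4enif1 window, AP sites: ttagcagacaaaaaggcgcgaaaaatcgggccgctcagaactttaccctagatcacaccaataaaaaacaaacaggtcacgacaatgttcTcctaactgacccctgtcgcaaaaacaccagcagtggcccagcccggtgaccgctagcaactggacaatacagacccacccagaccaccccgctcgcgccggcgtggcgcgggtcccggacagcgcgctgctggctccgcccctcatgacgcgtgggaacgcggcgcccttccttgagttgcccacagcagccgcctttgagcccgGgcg
In the Gm33862 window, 115 AP positions of the 12 libraries fell on 70 plus-strand nucleotides, and 41 more on the minus strand. The 40 plus-strand SSB positions there fell on 35 nucleotides, and 16 more were on the minus strand. The Eif4enif1 window, further along and still within the span of Sfi1, held 3 AP and 7 SSB positions on both strands together. Of the 156 AP positions of the Gm33862 window, 73 were at A, 40 at G, 25 at C and 18 at T, read on the strand of the lesion, so that 72.4% were at purines. Of its 56 SSB positions, 27 were at C, 15 at G, 10 at T and 4 at A, and 33.9% were at purines. Over 29164 promoter windows of the genome, chosen so that none overlapped another, the share at purines was 74.8% for AP sites and 40.6% for SSBs. By single base, A took 46.8% of the AP positions of the Gm33862 window against 39.0% over those 29164 windows, and G 25.6% against 35.9%. For SSBs, C took 48.2% against 39.0% and G 26.8% against 34.9%. The part of the window's own base composition in these shares was not tested. Whether the listed nucleotide is the lesion itself or its neighbour is not given in the sources used here.

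Sfi1 had the highest lesion density of the 20261 genes of at least 10 kb in each of the 24 libraries. Density was expressed as LPKM, the number of lesion positions per kb of gene and per 1000000 positions of the library. LPKM-AP of Sfi1 was 17.0 ± 1.65 (SD, n = 12; range 14.3 to 19.5) and its LPKM-SSB 16.3 ± 1.27 (SD, n = 12; range 14.3 to 17.8). The median gene of at least 10 kb had a mean LPKM-AP of 0.520 and a mean LPKM-SSB of 0.518, so that Sfi1 lay 32.7 and 31.5 times above it. Among these genes of at least 10 kb none lay above Sfi1, and the next in LPKM-AP were 3 genes of chromosome 1. Hjurp, which encodes the chaperone of the centromeric histone CENP-A, had an LPKM-AP of 5.95 ± 0.566 (SD, n = 12), Mroh2a, which overlaps Hjurp, 5.70 ± 0.623, and C130026I21Rik 4.42 ± 0.433. The same genes had an LPKM-SSB of 5.31, 5.41 and 3.91 and ranked 3, 2 and 5 in that measure. The highest library of Hjurp for AP sites reached 6.80 and the lowest of Sfi1 14.3, so the levels of the leading gene and the next did not overlap.

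The tissue means of the LPKM of Sfi1 lay close together beside its distance from other genes. In samples 1 and 2, LPKM-AP was 14.3 and 14.3 in the bone marrow samples, 15.6 and 18.1 in liver, 16.8 and 17.0 in brain, 17.2 and 17.3 in PBMCs, 17.9 and 16.8 in heart, and 19.5 and 19.3 in sperm. Bone marrow was lowest and sperm highest, each with both samples apart from all others, and brain, PBMCs and heart overlapped the wide range of liver. The highest tissue mean was 1.36 times the lowest. LPKM-SSB was 14.6 and 14.3 in sperm, 16.7 and 14.98 in heart, 15.3 and 16.6 in brain, 17.8 and 16.0 in liver, 17.6 and 16.7 in PBMCs, and 17.3 and 17.8 in bone marrow. Here sperm was lowest, with both samples below all others, while bone marrow had the highest mean and overlapped liver and PBMCs. The highest tissue mean was 1.22 times the lowest.

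**Figure D1:**
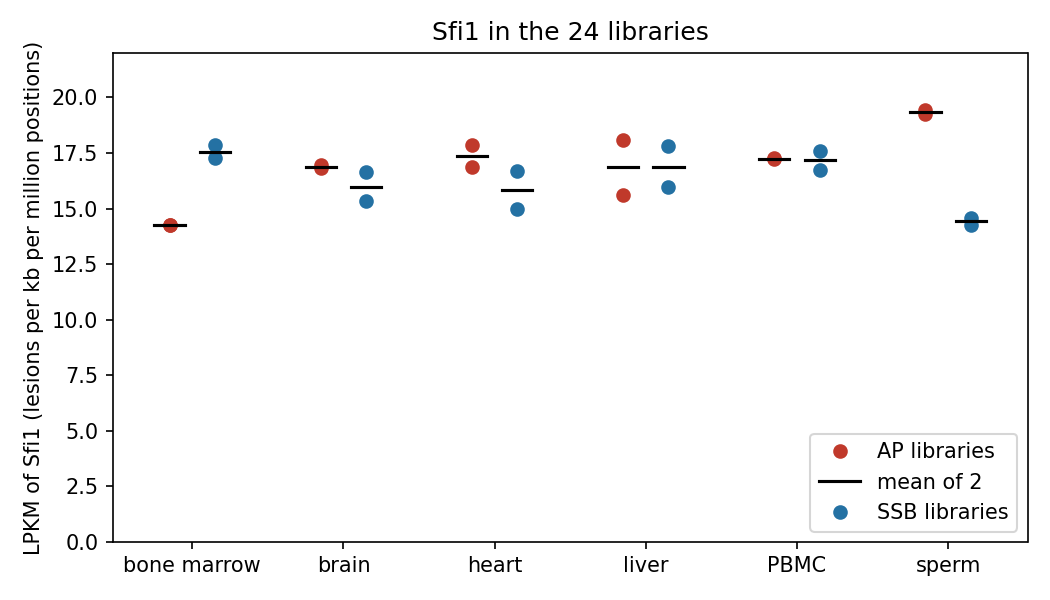
LPKM of Sfi1 (lesion positions per kb of gene and per 1000000 positions of the library, linear axis from 0) in the 12 AP and 12 SSB libraries, by tissue; each point is a library and each bar the mean of 2. For AP sites bone marrow is lowest (mean 14.3) and sperm highest (19.4); for SSBs sperm is lowest (14.4) and bone marrow highest (17.5).

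The question of whether the lesion level of Sfi1 varied among tissues was tested in a fit over all genes. With edgeR's quasi-likelihood F test over the 6 tissues, Sfi1 had the smallest unadjusted p of the 41374 genes tested for AP sites (5.60e-05), and an adjusted p of 0.99999 (Benjamini-Hochberg). Across all genes, 0 (0%) were called at an adjusted p under 0.05 for AP sites with edgeR, while 1219 had an unadjusted p under 0.05. DESeq2 called 0 genes as well, with 18 at an unadjusted p under 0.05, and gave Sfi1 an adjusted p of 0.287. The edgeR value depended on a single library: without the second liver sample the adjusted p was 0.0379, and without any other single library it was between 0.404 and 0.999998. For SSBs the edgeR p of Sfi1 was 0.273 and the adjusted p 0.992, beside 48 of 38486 genes called (0.125%). These fits rest on a mean of 896 AP and 531 SSB positions of Sfi1 per library. A gene with more positions is tested with more precision, and Sfi1 was chosen for its AP density. Its rank by unadjusted p for AP sites is therefore not independent of that choice.

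Along the gene, the lesions of both assays filled a block that began before the low-coordinate end of the annotation and became sparse before the other end. In steps of 1 kb, Sfi1 had a median of 109 AP positions per step summed over the 12 libraries (range 0 to 532) and 80 SSB positions (range 0 to 265). The 200 kb to its right, toward higher coordinates, had a median of 4 AP and 2 SSB positions per step, and their highest steps held 20 and 15. Of the 72 steps of Sfi1, 61 exceeded the highest step of the right flank for AP sites, and 61 did so for SSBs. For AP sites, the run of steps over 2 times the flank median, with gaps of at most 2 steps, spanned chr11:3122850-3199849, with 12133 positions in 77 steps. It began 9000 bp before the low-coordinate end of Sfi1 and stopped 3498 bp short of the other end, and the last 4 steps of Sfi1 held 12 AP positions in all. For SSBs the run had the same first step and 81 steps, and reached the high-coordinate end of Sfi1 at 3203347. It did so across sparse steps: the last 4 steps of Sfi1 held 1, 1, 10 and 4 SSB positions. The first 2 of these were bridged as a gap. The last step has only 498 bp, so that its 4 positions came to 8.03 per kb, over the threshold of 6. The flanks held other, sparser runs over this low threshold, 10 for AP sites and 16 for SSBs, of at most 25 and 8 steps.

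**Figure D2:**
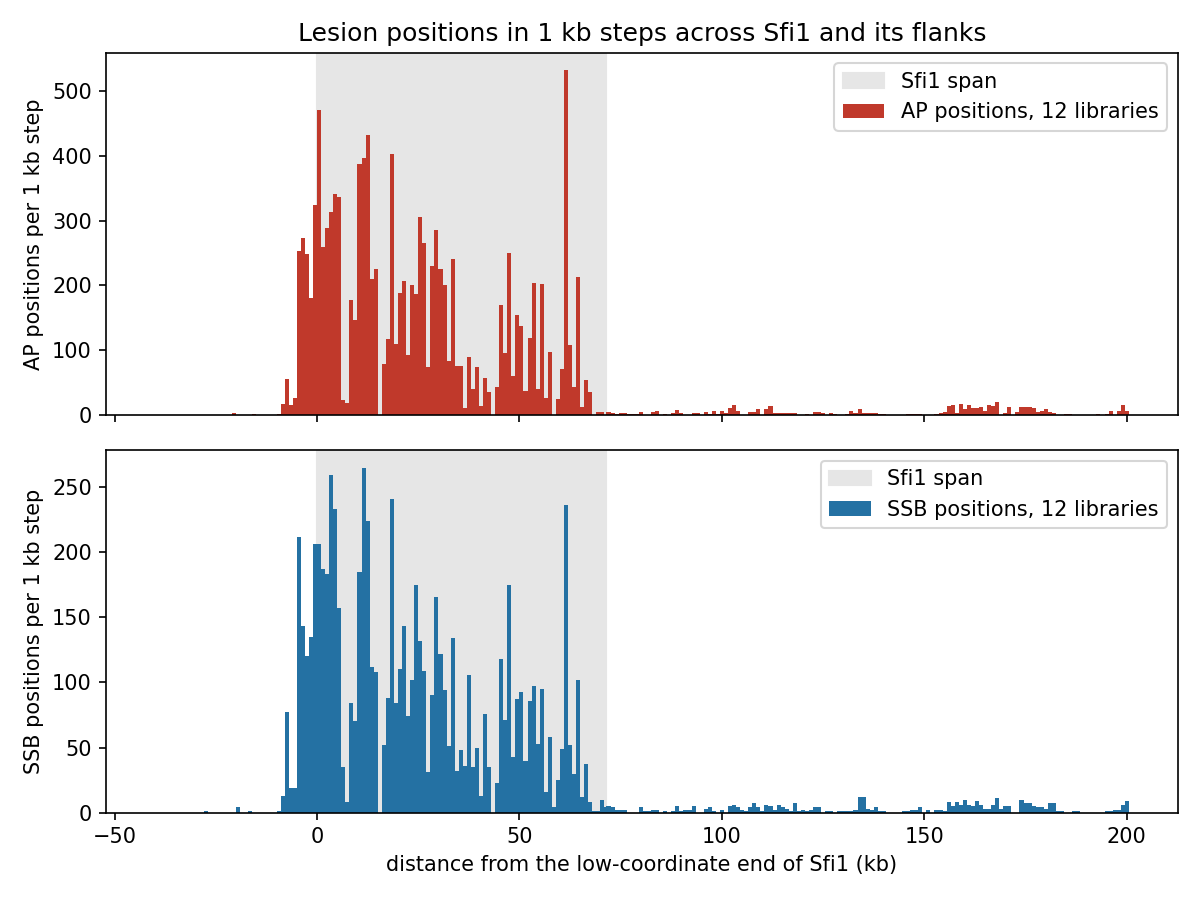
AP positions (upper panel) and SSB positions (lower panel) per 1 kb step, summed over the 12 libraries of each assay, against the distance in kb from the low-coordinate end of Sfi1, whose span is shaded. Both panels rise 9 kb before the gene, reach 532 AP and 265 SSB positions per step inside it, and fall to a few positions per step before its other end.

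The fold over the surroundings was measured within each library, over the steps that held at least 1 position in any library. Against the 200 kb on each side, the density of Sfi1 was 12.9 ± 1.73-fold higher for AP sites (SD, n = 12; range 9.89 to 17.0). For SSBs, whose values did not enter the choice of the gene, it was 11.3 ± 1.24-fold higher (SD, n = 12; range 9.23 to 12.5). The SSB fold is still not independent of that choice: the assays share samples, and their positions over the steps of Sfi1 had a Spearman correlation of 0.956. The test that follows is thus no separate support for the density of the gene. The mean log2 fold for SSBs was 3.49 ± 0.16 (SD), above 0 in 12 of 12 libraries (two-sided exact sign-flip permutation test, p = 0.000488, the smallest that 12 libraries can give). The left flank holds the outer part of the dense block, and 1377 of its 1405 AP positions and 931 of its 951 SSB positions lay in the 8 kb next to Sfi1. Against the right flank alone, the fold was 27.9 ± 4.87 for AP sites and 25.2 ± 3.48 for SSBs (SD, n = 12 each). Another 195 flank steps held no position in any of the 24 libraries and were left out. Of these, 183 lay in the left flank, toward the start of chromosome 11, and 12 in the right flank; whether reads can map to them was not analysed here, so a fold that counts them as 0 is no measured contrast of density.

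By tissue, the fold over both flanks followed another order than LPKM. The mean for AP sites was lowest in bone marrow (10.6 ± 0.952, SD, n = 2) and highest in liver (14.7 ± 3.17), with sperm at 12.7 ± 1.203. For SSBs it was lowest in brain (9.91 ± 0.964) and highest in heart (12.3 ± 0.335), with sperm at 12.2 ± 0.2002 and bone marrow at 10.97 ± 1.93. The low place of sperm for SSBs was thus absent on this scale, where both flanks together held 66 to 266 SSB positions per library.

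Within Sfi1 the lesions were unevenly spread, and the low-coordinate part held most of them. The 24 steps of lowest coordinates held 50.5% of the AP positions and 50.4% of the SSB positions of the gene, the next 24 held 29.2% and 30.2%, and the last 24 held 20.3% and 19.4%. The 10 densest steps held 36.4% of the AP positions and 34.8% of the SSB positions. The highest step for AP sites, chr11:3192850-3193849, held 532 AP and 236 SSB positions. It lay 61 kb from the low-coordinate end of the gene, between steps with 71 and 108 AP positions. The highest for SSBs, chr11:3142850-3143849, held 396 AP and 265 SSB positions. The gene's step of lowest coordinates, chr11:3131850-3132849, held 470 AP and 206 SSB positions. In contrast, the interior steps that start at 3146850 and 3174850 held 1 AP position each and 0 SSB positions over 24 libraries, and the step at 3189850 held 0 AP and 4 SSB positions. Whether reads can map to these sparse steps was not analysed here. Each of the 10 steps highest in AP positions had a position in all 12 libraries of both assays, and 57 of the 72 steps had AP positions in all 12 AP libraries.

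The profile along the gene was much alike between assays and tissues. Over the 71 full steps of Sfi1, the Spearman correlation of AP with SSB positions was 0.956. Between pairs of tissues it was 0.933 to 0.972 for AP sites and 0.843 to 0.947 for SSBs. These are descriptions over neighbouring steps that share sequence, mapping and animals. The ratio of AP to SSB positions was 1.69 in Sfi1, 1.52 in the right flank and 1.60 over all positions of the 24 libraries, and it was 0.657 to 2.56 (median 1.58) over the 59 steps of Sfi1 with at least 50 positions.

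**Figure D3:**
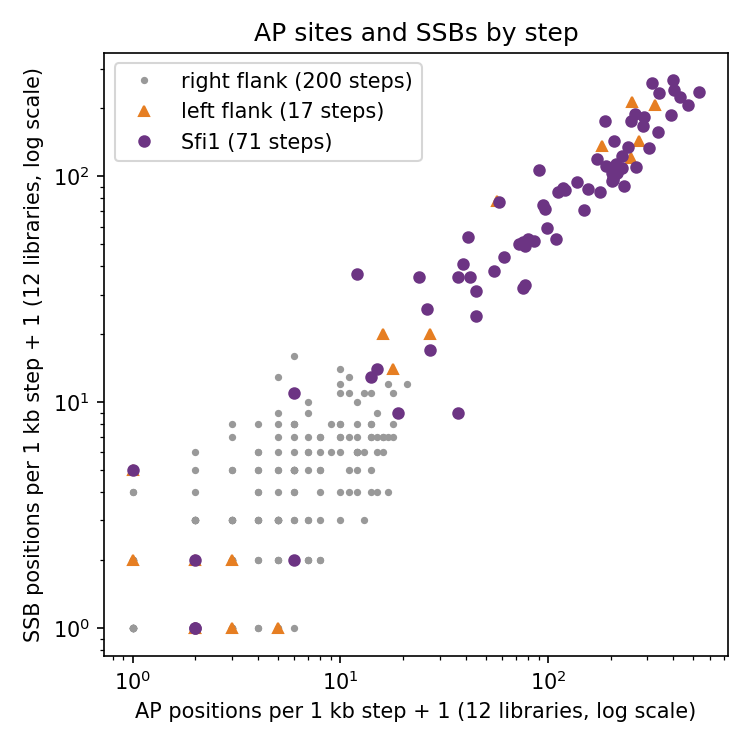
AP positions against SSB positions per 1 kb step, each summed over 12 libraries with 1 added (both axes logarithmic), for the 71 full steps of Sfi1, the 200 steps of the right flank and the 17 left-flank steps that hold a position. Most steps of Sfi1 lie above all right-flank steps on both axes, and the dense left-flank steps lie among those of Sfi1.

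The strands differed between the assays. Plus and minus are those of the reference, and were not assigned to the transcribed strand of Sfi1. The share of AP positions on the plus strand was 51.9 ± 1.69% in Sfi1 and 50.9 ± 2.68% in the flanks (SD, n = 12 each), a difference of 0.934 ± 2.92 percentage points. It was above 0 in 8 of 12 libraries and did not pass the two-sided exact sign-flip permutation test (p = 0.288, adjusted over both assays 0.288). Its direction turned against the right flank alone (-2.63 points) and with only nucleotides listed in a single library (-1.18 points). The share of SSB positions on the plus strand was 45.2 ± 3.01% in Sfi1 and 54.8 ± 2.77% in the flanks (SD, n = 12 each). The difference of -9.62 ± 3.69 points was below 0 in 12 of 12 libraries, from -18.2 to -5.35 (exact sign-flip permutation test, p = 0.000488, adjusted 0.000977). Most SSB positions of the flanks lay in the outer part of the dense block: 931 of the left flank's 951 were in the 8 kb next to Sfi1, and the right flank held 682. The difference from both flanks thus largely compares parts of the block. In the right flank, 51.8% of SSB positions of the 12 libraries together were on the plus strand. Against the right flank alone the difference was -7.16 points (p = 0.00146, exact sign-flip permutation test). The flank share rests on 66 to 266 SSB positions per library.

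**Figure D4:**
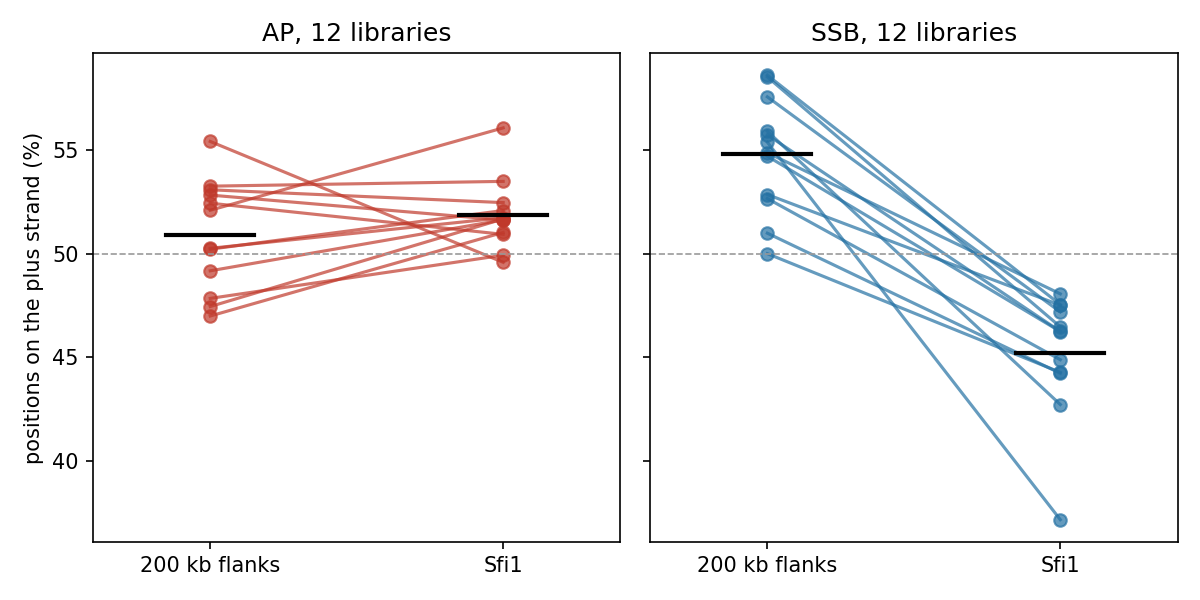
Share of positions on the plus strand (percent, axis not from 0) in the 200 kb flanks and in Sfi1, with the AP libraries in the left panel and the SSB libraries in the right panel; each line is a library and black bars are means. The share falls from 54.8% to 45.2% on average for SSBs, in each of the 12 libraries, and lies at 50.9% and 51.9% for AP sites. The flanks include the outer part of the dense block.

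The strand share also varied along the gene. In the 24 steps of lowest coordinates 50.2% of SSB positions were on the plus strand, near the 51.8% of the right flank. The share was 38.4% in the next 24 steps and 40.6% in the last 24. For AP sites the shares were 54.7%, 46.9% and 50.7%. Single steps with at least 100 positions are given with their distance from the low-coordinate end. Among them, the plus share went from 32.4% (241 positions, 33 kb) to 68.8% (337 positions, 5 kb) over 37 steps for AP sites. For SSBs it went from 22.03% (118 positions, 45 kb) to 64.7% (102 positions, 64 kb) over 26 steps, of which 20 lay under 50%. The base composition of the strands of Sfi1 was not analysed here, and its part in these shares was not tested.

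Lesions in Sfi1 came back at the same nucleotides in other libraries far more often than elsewhere. Of the AP positions of a library in Sfi1, 49.8% to 59.8% were also listed, at the same base and strand, in another of the 24 libraries, against 2.98% to 3.67% of all its AP positions and 1.61% to 9.62% of those in the right flank. For SSBs the shares were 34.0% to 41.9% in Sfi1, 1.76% to 2.16% over the library and 0% to 5.71% in the right flank. A denser region holds more shared nucleotides by its density alone, and the part of density in these shares was not tested. The AP positions of the 12 libraries fell on 7686 distinct nucleotides of Sfi1, of which 26.5% were listed in 2 or more AP libraries and 36 in 6 or more. These are 5.37% of the 142996 nucleotides of both strands. The most recurrent, chr11:3132750 on the plus strand, was listed in 9 of 12 AP libraries, and chr11:3142232 on the plus strand in 8. SSB positions fell on 5590 nucleotides, of which 12.04% were in 2 or more libraries, with chr11:3153941 on the plus strand highest at 5. The assays shared 1149 nucleotides, which are 14.9% of those with AP sites and 20.6% of those with SSBs.

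Counts above 1 at a position were also more frequent in Sfi1. The lists give a raw count at each position, and it was above 1 for 3.02% to 7.31% of the AP positions in Sfi1, against 0.340% to 0.929% of all positions of an AP library. For SSBs the shares were 0.997% to 4.84% and 0.140% to 1.23%. The highest count in Sfi1 was 4 for AP sites and 3 for SSBs. With counts summed in place of positions, the mean fold over the flanks was 13.1 for AP sites and 11.4 for SSBs. With only nucleotides listed in a single library of the 24, it was 8.42 and 8.81.

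Of the 13 annotated genes that lie in Sfi1 or within 200 kb of it, the densest were those inside the AP block. Pisd-ps1, a transcribed pseudogene of the phosphatidylserine decarboxylase gene Pisd at chr11:3124002-3131945, which overlaps the low-coordinate end of Sfi1, had an LPKM-AP of 19.2 ± 3.22 and an LPKM-SSB of 21.2 ± 2.95 (SD, n = 12 each). Within Sfi1, the pseudogene Gm11400 had 42.8 ± 7.54 and 45.0 ± 9.01, the ribosomal protein pseudogene Fau-ps2 44.1 ± 14.0 and 27.8 ± 14.3, and the long non-coding RNA gene Gm33862 10.7 ± 1.76 and 10.4 ± 2.93. Fau-ps2 spans 338 bp, and its LPKM rests on 133 AP and 54 SSB positions in all. Gm51877, inside Sfi1 and in the sparse end of the SSB block but past the AP block, had only 6 AP and 15 SSB positions, an LPKM of 0.453 and 1.49. Eif4enif1, which overlaps the high-coordinate end of Sfi1, had an LPKM-AP of 0.486 ± 0.117 and an LPKM-SSB of 0.452 ± 0.148 (SD, n = 12 each), near the median gene. The other 7 genes lay between 0.325 (Drg1) and 1.17 (Patz1) for AP sites and between 0.427 (Gm11944) and 1.05 (Patz1) for SSBs. Patz1, although outside the block, ranked 186 for AP sites and 982 for SSBs among the 20261 genes of at least 10 kb.

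Because Pisd-ps1 lies in the block, the genes named after Pisd were also read, a choice made after the values were seen. Pisd-ps2, a transcribed pseudogene at chr17:3064318-3084183, had an LPKM-AP of 4.04 ± 0.535 and an LPKM-SSB of 4.40 ± 0.825 (SD, n = 12 each), and ranked 5 and 4 among the genes of at least 10 kb. Pisd itself, on chromosome 5, had 0.827 ± 0.237 and 0.862 ± 0.173. How many copies of the Sfi1 sequence these genomes or the reference build hold was not analysed here, and more copies of a sequence and more lesions per copy cannot be told apart in these lists.

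The genes whose LPKM followed that of Sfi1 most closely over the 24 libraries were Prrx1, a homeobox gene of mesenchyme (Spearman correlation 0.637), the long non-coding RNA gene 1700112M02Rik (0.623) and Adamts16, a secreted metalloprotease gene (0.622). They were found among 3225 genes at least 1 Mb away with a mean of at least 20 positions per library, of which 95% had a correlation below 0.383. These libraries share animals and differ in assay and depth, and the values are a description. Their own levels were ordinary, at an LPKM-AP of 0.761, 0.520 and 0.677.

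Other genes of the centrosome showed no density like that of Sfi1. The list held 25 genes for centrins, centrin-binding and centriole assembly proteins, and all 25 were in the annotation. Their median LPKM was 0.5999 for AP sites and 0.579 for SSBs, beside 0.520 and 0.518 for all genes of at least 10 kb. The highest LPKM-AP was that of the centrin gene Cetn1 (0.954, from 9 positions in all 12 libraries) and the lowest that of the centrin gene Cetn2 (0.194, from 8 positions). Across tissues, 0 of 25 were called with edgeR for AP sites and 0 of 25 for SSBs, beside 0% and 0.125% of all genes tested. With edgeR, 1 of 25 for AP sites (Odf2, 4%, beside 2.95% of all genes tested) and 4 of 25 for SSBs (Cdk5rap2, Cetn3, Cenpj and Cep192, 16%, beside 4.85%, or 1867 of 38486 genes) had an unadjusted p under 0.05. With DESeq2, 0 were called and 0 had such a p in either assay, beside 0.0435% and 0.572% of all genes with such a p. The median unadjusted p of edgeR over the list was 0.381 for AP sites and 0.311 for SSBs, beside 0.575 and 0.543 over all genes tested.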

How the data were processed

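The authors deposited, for each library, a list of single-nucleotide lesion positions, each with its strand and its raw count, not normalized and not pooled over samples. The submitters' processing notes name mm10 and GRCm38; the aligner and filters behind the lists are not given in the sources used here. The notes also name RSEM 1.2.28, an RNA quantifier.

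Each position was counted once. LPKM was computed for whole genes (RefSeq GRCm38.p6 spans) as positions times 1e+09, over the bp of the gene and over the library's positions, after the metric's name, lesions per kb per 1000000; the formula printed in the study's methods has no length term and another factor. A position in overlapping genes counted for each. Exons were not used here. Spans hold 49943 genes. For tests across tissues, genes nonzero in at least 20% of libraries entered edgeR 4.0.16 (TMM, all positions as library size, quasi-likelihood F test over 6 tissues, Benjamini-Hochberg, threshold 0.05) in R 4.3.3, with DESeq2 1.42.0 as an alternative. The edgeR script was tested on simulated data. Fold over flank and strand shares were tested per library by exact sign-flip permutation. Alternatives were other flanks, steps, count units, normalization and filters, a replicate block, and leaving out each library. Python 3.11.15, pandas 2.3.3 and scipy 1.17.1 were used.

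The named genes were Sfi1, genes in or within 200 kb of it, the 3 most alike, the 3 next in LPKM-AP, and the centrosome genes of highest and lowest LPKM-AP. The gene, lists and tests were chosen with earlier results of these data known. Precision is limited by the 225011 to 1041983 positions per library. No promoter or protein sequence of Sfi1 was used.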

Additional observations from a re-analysis of the deposited data

Results flagged for a closer look

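The LPKM of Sfi1 in sperm relative to bone marrow went opposite ways in the assays. The mean of the 2 sperm samples was 1.36 times that of the 2 bone marrow samples for AP sites and 0.822 times for SSBs. Both sperm samples lay above both bone marrow samples for AP sites (19.5 and 19.3 against 14.3 and 14.3) and below both for SSBs (14.6 and 14.3 against 17.3 and 17.8). This difference between the assays was not tested, and the pair of tissues was picked after the values were seen. Relative to the flanks, the sperm samples lay above the bone marrow samples for AP sites (11.9 and 13.6 against 9.89 and 11.2 in order of size), and the samples overlapped for SSBs (12.1 and 12.3 against 9.60 and 12.3). Sperm DNA was extracted with another kit, and the kit and the tissue cannot be told apart.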

How the results depend on the processing

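The fold of AP sites in Sfi1 over its flanks moved from 12.9 to 27.9 against the right flank only, 18.5 with 500 kb flanks and 8.42 with nucleotides of a single library. It was 25.1 with all steps, which counts as 0 the 195 empty flank steps, 183 of them in the left flank, and is no measured contrast. With each library left out the fold was 12.5 to 13.1. The SSB fold stayed above 1, with p under 0.05 in the exact sign-flip permutation test, in its 17 alternatives (8.81 to 25.2). Like the main test, these alternatives are no separate support for the density, since the SSB fold is not independent of the choice of the gene. A median over steps gave no value per library, since the flank median was 0 in 24 of 24. The edgeR adjusted p of AP sites across tissues was 0.0379 to 0.999998 with each library left out, the lowest without the second liver sample; with the replicate block it was 0.6003 for AP sites and 0.9999 for SSBs, and no call changed. Same-numbered samples were not shown to be pairs: the correlation of their deviations over 15 pairs of tissues was -0.188 to 0.130 for AP sites and -0.0360 to 0.0228 for SSBs. The AP strand difference turned to -2.63 points against the right flank only and -1.18 with nucleotides of a single library, and was 0.634 to 1.55 with each library left out (exact p = 0.0381 without the second heart sample). The SSB strand difference kept its sign and call in its 15 alternatives (-10.0 to -7.16). The centrosome list had 0 calls in its 17 alternatives of each assay. Depth limits the flank values: both flanks held 66 to 266 SSB positions per library.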
